A study of Zea mays with 28 samples.

Results

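Of the 39625 maize genes in the count table, 56 were strongly upregulated by both spider mite species at both time points, and these 56 genes are described here. They were chosen from group means: counts were scaled to a library of 1000000 reads (CPM), and D was defined as log2(group mean CPM + 1) minus the same value in control leaves. A gene was kept when D was at least 2 in all 4 mite groups. This held for 64 genes, of which 8 were among 9 identifiers that the rule left out. The number depended on the offset, since 28 genes passed with an offset of 2 CPM in place of 1.

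All plants were the inbred B73, and each of the 28 samples was the enclosed segment of the fourth leaf of a single 22-day-old plant, with 4 leaves in each of 7 groups. All leaves, controls included, carried an enclosure made with Tanglefoot, a sticky barrier, and were collected at a single harvest, with treatments started earlier by 2 or 24 h. Control leaves received no mites. Mite leaves received adult females of either *Oligonychus pratensis*, a grass specialist kept as a strain collected in the field from maize, or *Tetranychus urticae*, a generalist whose strain W-GR had been kept on bean and was then acclimated to maize. There were 400 mites per leaf at 2 h and 200 at 24 h, so time and mite number cannot be told apart. Wounded leaves were treated with sandpaper and taken after 2 or 24 h.

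Spider mites pierce single leaf cells and empty their contents, so they feed on mesophyll without chewing. In plants, wounding and herbivory raise jasmonate, whose active conjugate leads to the breakdown of the JAZ repressors and so releases transcription factors that switch on defense genes. Genes for the JAZ proteins, which belong to the TIFY (ZIM) family, are themselves jasmonate-induced, and maize under attack also makes volatile terpenoids and aromatic esters. Nothing in the rule used gene function, and only the values in mite and control leaves chose the 56 genes.

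Library totals lay between 14721310 and 32891100 reads. The smallest was *O. pratensis* 2 h replicate 2, whose value was the highest of its group for 52 of the 56 genes. *T. urticae* 2 h replicate 1, with 22718232 reads, had the lowest value of its group for 48 genes. The leaf identity was checked with genes of C4 photosynthesis: phosphoenolpyruvate carboxylase (GRMZM2G083841) was at 11542 to 21484 CPM and pyruvate phosphate dikinase (GRMZM2G306345) at 21828 to 50659 CPM in all libraries, while the meristem gene kn1 (GRMZM2G017087) had 0 reads in all of them.

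The reference name table gave a single name for 45 of the 56 genes, several names for 2 and none for 9. Among the recognisable names were 5 TIFY genes, 3 basic helix-loop-helix (bHLH) transcription factor genes, AAMT1 (GRMZM2G039993, an anthranilic acid methyltransferase that makes the volatile methyl anthranilate), dxs2 (GRMZM2G493395, a 1-deoxy-D-xylulose 5-phosphate synthase at the entry of the plastid isoprenoid pathway) and GST25 (GRMZM2G161905, a glutathione transferase, of the enzymes that couple glutathione to reactive compounds). The others carry only locus numbers, or in 1 case the name GPRP, and are named by identifier.

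Mean levels in control leaves ran from 0.081 CPM (GRMZM2G091540) to 11.3 CPM (GRMZM2G005849) over the 56 genes, and the rule favoured low control levels. Between 51 and 56 of the genes had reads in each control leaf. Over the 4 control leaves together they had from 9 to 1229 reads each, with a median of 109.5. Their CPM summed to 107 ± 22.99 (SD, n = 4) per control leaf. In bulk leaf tissue a change in the number of expressing cells and a change of RNA per cell cannot be told apart, and this holds for every value below. The sum was 2560 ± 605 and 1097 ± 455 CPM after 2 h of *O. pratensis* and *T. urticae*, and 3472 ± 637 and 4823 ± 947 CPM after 24 h. Mite leaves were thus far above control leaves, as the rule required.

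**Figure D1:**
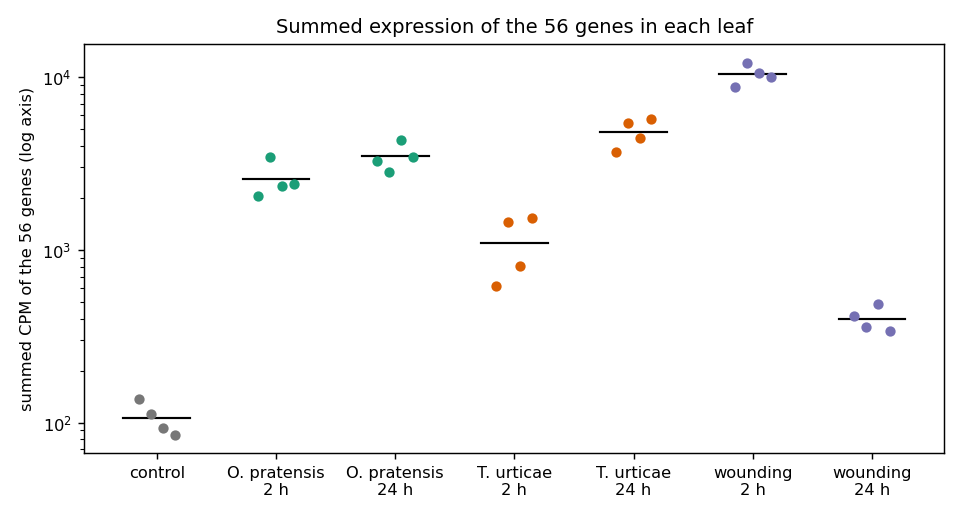
Summed CPM of the 56 genes in each leaf (points, log axis) with the group mean (bar), for the 7 groups of 4 leaves. The 4 leaves wounded 2 h earlier had the largest sums (mean 10364 CPM), the leaves wounded 24 h earlier had a mean of 399 CPM, and the control leaves had a mean of 107 CPM.

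GRMZM2G011523, which the table pairs with several names, and GRMZM2G103197 took the most reads over the 16 mite leaves together, a ranking not scaled by gene length in which the 24 h leaves weigh most. Together they made up 3.34% and 2.34% of the sum after 2 h of *O. pratensis* and *T. urticae*, and 28.2% and 35.8% after 24 h. Without them the sums were 2475, 1071, 2494 and 3096 CPM in the *O. pratensis* 2 h, *T. urticae* 2 h, *O. pratensis* 24 h and *T. urticae* 24 h leaves.

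By the rule's own measure, which is given as a description, the median D of the 56 genes was 3.76 after 2 h of *O. pratensis* (2.82 to 6.15), 2.71 after 2 h of *T. urticae* (2.00 to 4.88), 3.33 after 24 h of *O. pratensis* (2.02 to 8.64) and 3.66 after 24 h of *T. urticae* (2.05 to 9.16). The medians over all 22339 genes tested were -0.02, -0.00143, 0.13 and 0.23. In edgeR all 56 were called higher than controls in the 4 mite groups, beside 5.25%, 2.47%, 12.3% and 15% of all genes in the same order, but these contrasts chose the genes. The lowest of the 4 D values was that of *T. urticae* at 2 h for 39 genes, *O. pratensis* at 24 h for 15 and *T. urticae* at 24 h for 2. Just inside the threshold were GRMZM2G305280, GRMZM2G127328 and the bHLH gene GRMZM2G112629, with lowest D values of 2.00, 2.01 and 2.02. Just outside were GRMZM2G343317, GRMZM2G120320 and GRMZM2G036288 (TIFY29), at 1.97, 1.94 and 1.91.

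**Figure D2:**
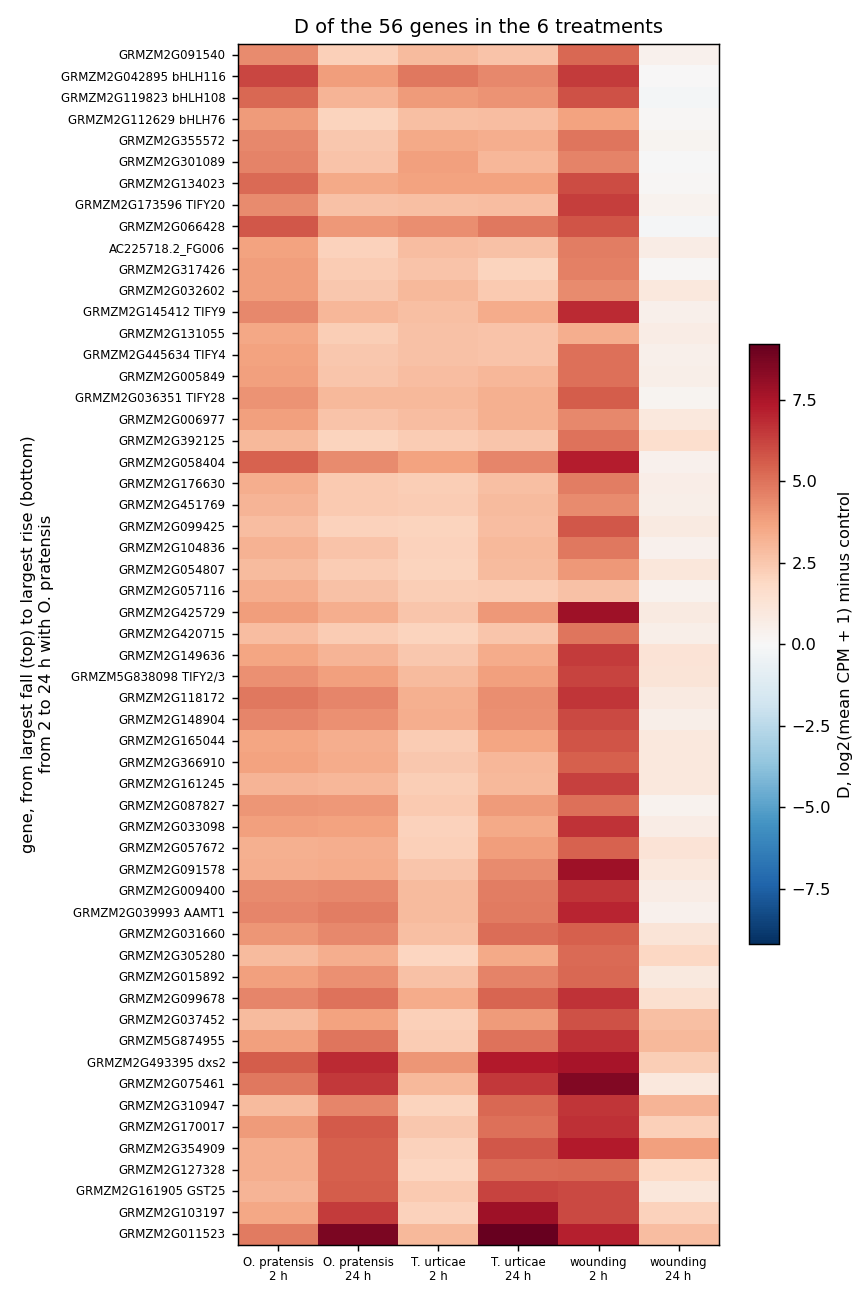
D, the log2(mean CPM + 1) of a group minus that of control leaves (colour), for the 56 genes (one per line) in the 6 treatments, with genes ordered by their change from 2 to 24 h of *O. pratensis*. The 2 h wounding column has the largest median (5.78) and the 24 h wounding column the smallest (0.82), while the largest single values are those of GRMZM2G011523 after 24 h of mites (8.64 and 9.16).

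The wounded leaves, which the rule did not use, held the highest levels of these genes at 2 h. The median D after 2 h of wounding was 5.78 (2.71 to 8.51), against a median of -0.03 over all genes tested. All 4 wounded leaves exceeded all 4 control leaves for each of the 56 genes. All 28 leaves were fitted together in edgeR, and p-values were adjusted over the 22339 genes tested by the Benjamini-Hochberg method. All 56 genes were upregulated 2 h after wounding (adjusted p at most 0.01 and a log2 fold change of at least 1), with a median log2 fold change of 6.77 and a smallest one of 3.64, where 17% of all genes were called higher. This comparison shares its control leaves with the rule. The description "strong mite genes" therefore says how the genes were chosen and not that they respond to mites alone.

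Side by side, with no test because mite leaves chose the genes, the mean CPM 2 h after wounding lay above all 4 mite group means for 48 of the 56 genes. The median ratio of wounding to mite means at 2 h was 3.92 where leaves held *O. pratensis* and 9.59 where they held *T. urticae*. The 8 exceptions were GRMZM2G011523, GRMZM2G103197, GRMZM2G127328, GRMZM2G161905 (GST25), GRMZM2G057116, GRMZM2G131055, GRMZM2G301089 and GRMZM2G112629 (bHLH76). Of these, GRMZM2G057116 had the smallest D after 2 h of wounding. It was at 1.83, 0.801, 0.674 and 0.567 CPM in controls, 7.99, 15.2, 12 and 12.4 CPM 2 h after wounding and 11.3, 22.6, 20.8 and 19.2 CPM after 2 h of *O. pratensis*. The wounded and *O. pratensis* leaves of this gene overlapped, and both stood above the controls.

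The largest D after 2 h of wounding, 8.51, was that of GRMZM2G075461. It was at 0.0373, 0.1, 0.262 and 0.203 CPM in controls and 362, 495, 452 and 370.2 CPM 2 h after wounding. After 24 h of wounding it was at 2.25, 1.14, 1.31 and 0.377 CPM, so these leaves lay between the other groups and overlapped neither. The next largest were GRMZM2G091578, GRMZM2G425729, dxs2 and GRMZM2G354909, with D of 7.79, 7.77, 7.6 and 7.28.

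A day after wounding the levels of the genes were far lower, whereas leaves with mites for 24 h were above controls by the rule. All 56 were lower 24 h than 2 h after wounding in edgeR, with a median log2 fold change of -5.45 (-9.57 to -3.17), where 14.7% of all genes were called lower. This contrast shares no leaf with the rule. For each of the 56 genes all 4 leaves at 24 h lay below all 4 leaves at 2 h. The largest falls were in GRMZM2G066428 (log2 fold change -9.57), GRMZM2G134023 (-8.71) and bHLH108 (-8.62).

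Relative to these control leaves, the return was incomplete for many of the genes. Against controls, 26 of the 56 were still upregulated 24 h after wounding with a median log2 fold change of 1.26 (-1.08 to 3.91). None was called lower in edgeR or DESeq2, and 0 were lower at an unadjusted p under 0.05. Of all genes, 7.8% were called higher in this comparison. It shares its control leaves with the rule, which favoured low control values, so the count of 26 is a description. The median D was 0.82, against 0.12 over all genes tested, and 8 genes had a D of at least 2 while 18 were under 0.5. DESeq2 called 33 of the 56 higher. Tested against a 2-fold change (glmTreat), 11 were called.

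The 5 genes with the most persistent wound response were GRMZM2G354909, GRMZM2G310947, GRMZM5G874955, GRMZM2G011523 and GRMZM2G037452, with D of 3.75, 3.14, 3.01, 2.85 and 2.78 at 24 h. GRMZM2G354909 was at 3.21, 3.54, 3.52 and 4.17 CPM in controls, 631, 719, 829 and 684 CPM 2 h after wounding and 58.8, 54.1, 73.1 and 58.6 CPM 24 h after it. Its 24 h leaves stood above all controls, by a log2 fold change of 3.91 ± 0.22 (SE, adjusted p = 1.32e-12). GRMZM2G310947 was at 4.18, 4.47, 2.25 and 2.71 CPM in controls and 48.1, 32.95, 39.98 and 30.5 CPM 24 h after wounding, again without overlap. At the other end, GRMZM2G119823 (bHLH108), GRMZM2G066428, GRMZM2G301089, GRMZM2G042895 (bHLH116) and GRMZM2G134023 had D of -0.16, -0.11, -0.03, 0.01 and 0.09.

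With mites present the genes did not change in 1 direction between 2 and 24 h. The next comparisons set leaves of the same mite species at the 2 times against each other. Both times had to pass the same threshold, so genes back near the control level by 24 h are not among the 56 and the spread is bounded from below. The counts that follow use leaves that chose the genes and are descriptions. With *O. pratensis*, 22 of the 56 fell and 8 rose, with a median log2 fold change of -0.68 (-2.65 to 3.65), where 1.21% of all genes were called lower and 6.76% higher. With *T. urticae*, 23 rose and 0 fell in edgeR, with a median of 0.62 (-0.997 to 6.04), where 11.5% of all genes were called higher and 3.44% lower. At an unadjusted p under 0.05, 5 genes were lower, and DESeq2 called 1 of the 56, GRMZM2G301089, lower. Tested against a 2-fold change, 14 and 11 genes were called, 5 of the 14 higher and 9 lower.

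The 8 genes that rose with *O. pratensis* were all among the 23 that rose with *T. urticae*. The 22 that fell with *O. pratensis* were not called in edgeR with *T. urticae*. The rule left less room for a fall with *T. urticae*, so nothing is read from this contrast. The changes with the 2 species share no leaf. Over the 56 genes they ranked alike (Spearman's rho 0.94, Pearson's r 0.95), beside 0.79 and 0.83 over all 22339 genes tested. Genes are not independent replicates and libraries of the 2 species were made in the same experiment, so these values are descriptions.

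**Figure D3:**
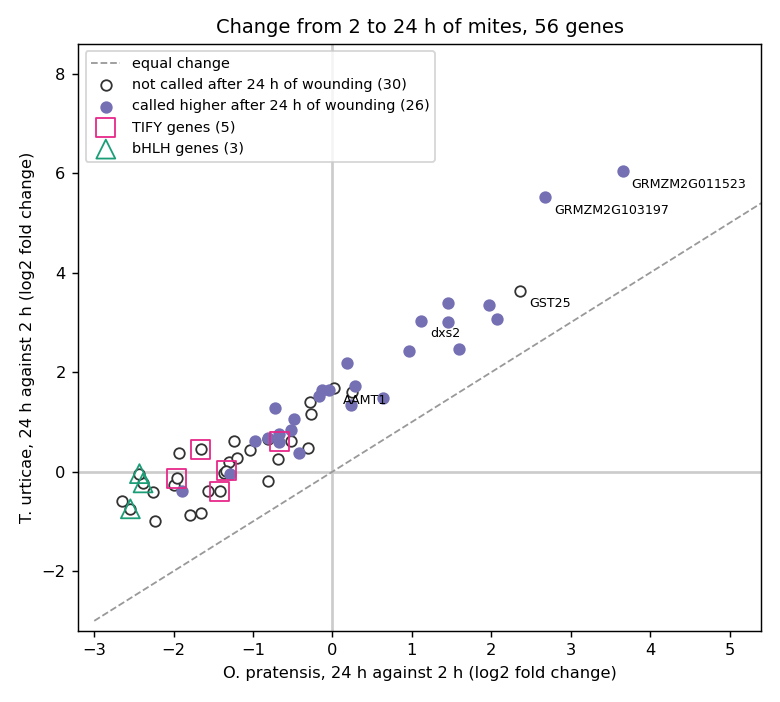
Log2 fold change from 2 to 24 h with *O. pratensis* (horizontal) and *T. urticae* (vertical) for the 56 genes, filled where the gene was still called higher 24 h after wounding. All points lie above the line of equal change, the 3 bHLH genes (triangles) and 5 TIFY genes (squares) lie on the left, and GRMZM2G011523 and GRMZM2G103197 lie farthest to the upper right.

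Of the 5 TIFY genes, of the family that includes the JAZ repressors, 4 fell between 2 and 24 h of *O. pratensis*. Because mite leaves chose the genes, adjusted p-values for changes between the times with mites are descriptions, here and for the single genes that follow. Values with *T. urticae* are given beside those with *O. pratensis*, and nothing is read from the difference between the species. TIFY20 (GRMZM2G173596, also ZIM10) was at 0.336, 0.167, 0.112 and 0.203 CPM in control leaves. It was at 19.3, 33.1, 19.02 and 21.3 CPM after 2 h and 7.26, 6.83, 6.69 and 6.15 CPM after 24 h of *O. pratensis*, and the groups did not overlap. With *T. urticae* it was at 4.62, 9.48, 5.6 and 8.35 CPM after 2 h and 6.6, 9.56, 5.93 and 8.8 CPM after 24 h, and here they overlapped. After wounding it was at 83.97, 135, 90.1 and 84 CPM at 2 h and 0.496, 0.234, 0.851 and 0.549 CPM at 24 h. It fell with *O. pratensis* by 1.96 ± 0.22 on the log2 scale (SE, adjusted p = 1.56e-07), and its change with *T. urticae* was -0.13 ± 0.23 (adjusted p = 0.666).

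TIFY9 (GRMZM2G145412, also ZIM18) had the same order. It was at 21.8, 34.9, 19.5 and 23.4 CPM after 2 h and 10.4, 8.57, 9.32 and 7.5 CPM after 24 h of *O. pratensis*, without overlap. The *T. urticae* leaves held 3.92, 10.9, 3.69 and 10.3 CPM and then 9.23, 14.3, 10.2 and 13.4 CPM, with overlap. It fell with *O. pratensis* by 1.66 ± 0.29 on the log2 scale (adjusted p = 7.04e-05), and with *T. urticae* its change was 0.45 ± 0.29 (adjusted p = 0.212).

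TIFY4 (GRMZM2G445634) was at 5.59, 4.54, 3.26 and 4.17 CPM in controls, 63.1, 85.5, 58.6 and 67.96 CPM after 2 h and 31.9, 26.2, 25.8 and 33.2 CPM after 24 h of *O. pratensis*. The 3 groups were separate, and it fell between the times by 1.42 ± 0.20 on the log2 scale (adjusted p = 3.53e-06). TIFY28 (GRMZM2G036351, also ZIM4) was at 31.2, 45.3, 25.7 and 30.2 CPM and 16.9, 14.2, 12.1 and 16.03 CPM at the same times, again without overlap, and fell by 1.34 ± 0.22 (adjusted p = 3.92e-05). The fifth, GRMZM5G838098 (TIFY2 and TIFY3 in the table), was at 43.02, 76.2, 52.1 and 52.5 CPM and then 43.8, 29.6, 44.01 and 42.6 CPM. Its leaves overlapped between the times and its change of -0.67 ± 0.23 did not pass (adjusted p = 0.0282). It was also the only TIFY gene of the 5 still called 24 h after wounding, at 1.40 ± 0.28 (adjusted p = 0.000442).

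The name table held 16 further TIFY genes that passed the expression filter. Of these, 12 were upregulated 2 h after wounding and 12 fell between 2 and 24 h of wounding, with 1 still higher than controls at 24 h. With *O. pratensis* 3 fell between the times, with a median log2 fold change of -0.35, and with *T. urticae* 2 rose and 1 fell, with a median of -0.14. Against controls 10 were higher after 2 h of *O. pratensis*, 6 after 2 h of *T. urticae* and 6 after 24 h of either species.

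All 3 bHLH genes fell between 2 and 24 h of *O. pratensis*, and none of them was called in edgeR with *T. urticae*. Mite leaves chose these genes too, so the adjusted p-values are descriptions, and nothing is read from the difference between the species. bHLH116 (GRMZM2G042895) was at 2.91, 1.2, 1.24 and 0.446 CPM in controls, 142, 234, 150.0 and 165 CPM after 2 h and 33.97, 24.4, 35.9 and 40.8 CPM after 24 h of *O. pratensis*. With *T. urticae* it was at 49.4, 94.8, 50.7 and 88.9 CPM after 2 h and 42.1, 63.1, 43.1 and 55.6 CPM after 24 h. After wounding it was at 179, 311, 177 and 183 CPM at 2 h and 1.12, 0.67, 2.46 and 1.61 CPM at 24 h. The *O. pratensis* leaves were separate between the times, the *T. urticae* leaves overlapped, and the leaves wounded 24 h earlier overlapped the controls. It fell with *O. pratensis* by 2.54 ± 0.30 on the log2 scale (adjusted p = 3.7e-07), and with *T. urticae* its change was -0.75 ± 0.29 (adjusted p = 0.035).

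bHLH108 (GRMZM2G119823) was at 41.3, 69.02, 49.4 and 48.6 CPM after 2 h and 9.62, 7.61, 13.6 and 13.3 CPM after 24 h of *O. pratensis*, without overlap. In *T. urticae* leaves the values were 10.1, 22.6, 16.5 and 29.6 CPM and then 17.2, 28.5, 17.5 and 29.4 CPM, with overlap. It fell with *O. pratensis* by 2.43 ± 0.27 (adjusted p = 1.18e-07), and with *T. urticae* its change was -0.04 ± 0.26 (adjusted p = 0.913). bHLH76 (GRMZM2G112629) was at 13.1, 22.6, 14.5 and 12.6 CPM after 2 h of *O. pratensis*, and 2 h of wounding gave a like level of 12.2, 19.1, 12.1 and 9.46 CPM. After 24 h of *O. pratensis* it was at 3.02, 3.26, 3.98 and 3.32 CPM, below all 2 h leaves, a fall of 2.39 ± 0.23 (adjusted p = 8.04e-09). Of the 27 further bHLH genes tested, 2 rose between the times with *O. pratensis*, and 6 were higher and 5 lower 2 h after wounding.

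The largest fall with *O. pratensis*, 2.65 ± 0.29 on the log2 scale (adjusted p = 8.6e-08), was that of GRMZM2G091540. It was at 0.186, 0.1, 0.0374 and 0.00 CPM in controls, 17.96, 25.3, 19.9 and 22.2 CPM after 2 h and 3.75, 2.62, 3.77 and 5.41 CPM after 24 h. The 3 groups did not overlap, although control values rest on 9 reads over 4 leaves.

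**Figure D4:**
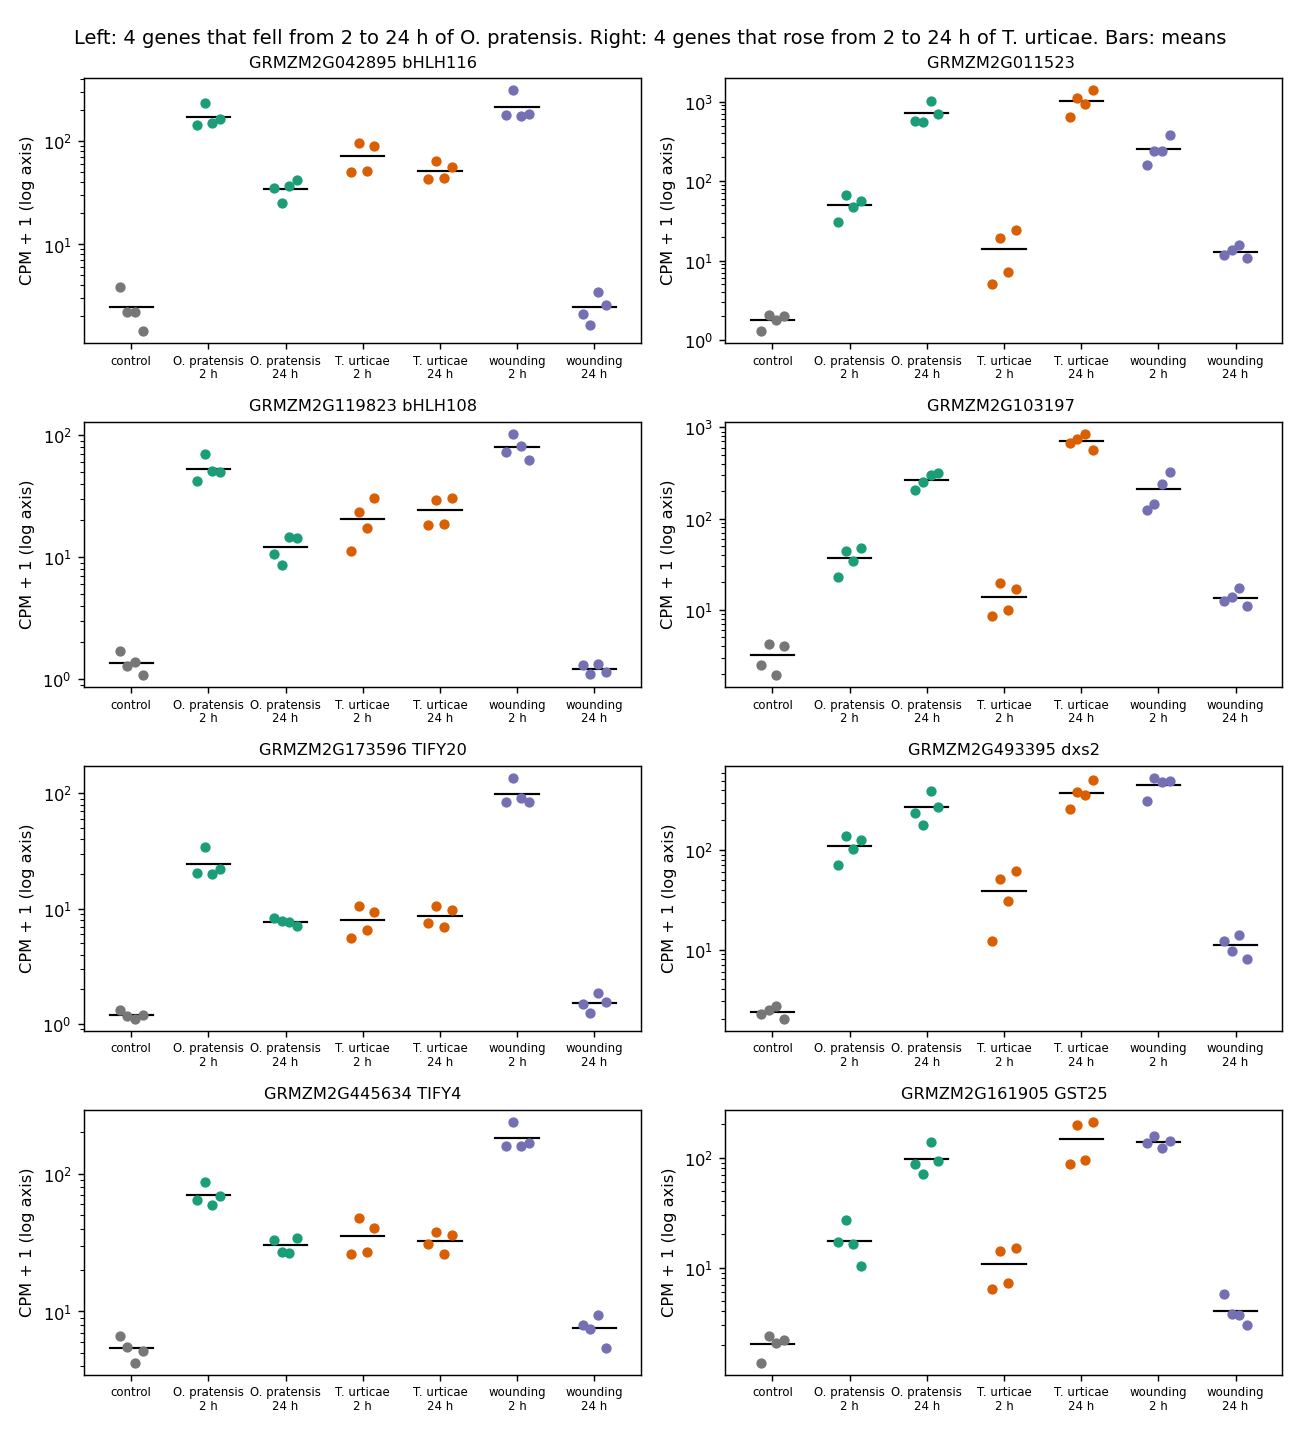
CPM + 1 in each leaf (points, log axis) with the group mean (bar) for 8 of the 56 genes in the 7 groups. On the left, bHLH116, bHLH108, TIFY20 and TIFY4 were lower after 24 h than after 2 h of *O. pratensis*, and on the right GRMZM2G011523, GRMZM2G103197, dxs2 and GST25 were higher after 24 h than after 2 h of *T. urticae*.

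Other genes rose between 2 and 24 h with both mite species. GRMZM2G011523 was at 0.298, 1.07, 0.786 and 1.01 CPM in controls, 29.6, 66.7, 45.6 and 55.7 CPM after 2 h and 569.8, 558, 1021 and 701 CPM after 24 h of *O. pratensis*. With *T. urticae* it was at 4.01, 18.04, 6.25 and 23.2 CPM after 2 h and 646, 1124, 932 and 1384 CPM after 24 h. After wounding it was at 159, 238, 241 and 380.4 CPM at 2 h and 10.6, 12.5, 14.7 and 9.88 CPM at 24 h. All 8 mite leaves at 24 h lay above all 4 leaves wounded 2 h earlier, and it rose with *O. pratensis* by 3.65 ± 0.40 and with *T. urticae* by 6.04 ± 0.45 on the log2 scale (adjusted p = 8.74e-08 and 5.04e-11).

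GRMZM2G103197 was at 22.2, 42.9, 33 and 46.6 CPM after 2 h and 203, 252, 298 and 312 CPM after 24 h of *O. pratensis*. With *T. urticae* it was at 7.66, 18.9, 8.97 and 15.7 CPM after 2 h and 668, 752, 838 and 560.5 CPM after 24 h. The times were separate with either species, and at 24 h all *T. urticae* leaves were above all *O. pratensis* leaves. It rose by 2.68 ± 0.33 with *O. pratensis* and by 5.52 ± 0.37 with *T. urticae* (adjusted p = 4.98e-07 and 8.69e-12).

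GST25 (GRMZM2G161905) was at 0.373, 1.37, 1.09 and 1.22 CPM in controls, 15.9, 25.8, 15.5 and 9.26 CPM after 2 h and 86.02, 69.3, 138 and 91.04 CPM after 24 h of *O. pratensis*. The *T. urticae* leaves held 5.37, 13.03, 6.29 and 14.1 CPM and then 86.3, 195, 94.3 and 209 CPM. Neither species' times overlapped, and it rose by 2.36 ± 0.33 and 3.63 ± 0.35 (adjusted p = 3.72e-06 and 4.2e-09). Among the 25 further glutathione transferase genes tested, 10 rose with *O. pratensis* and 13 with *T. urticae* between the times. GST25 was the single gene of the 8 risers with *O. pratensis* that was not called 24 h after wounding (1.42 ± 0.44, adjusted p = 0.0149).

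The isoprenoid gene dxs2 (GRMZM2G493395) was at 1.23, 1.47, 1.69 and 1.01 CPM in controls, 69.1, 139, 103 and 124 CPM after 2 h and 238, 178, 396 and 271 CPM after 24 h of *O. pratensis*. In *T. urticae* leaves it stood at 11.1, 49.6, 29.6 and 60.3 CPM after 2 h and 257, 384, 359 and 502 CPM after 24 h. The times were separate with both species. Its rise of 3.04 ± 0.35 with *T. urticae* passed the test (adjusted p = 8.4e-08), and its change of 1.12 ± 0.33 with *O. pratensis* narrowly missed it (adjusted p = 0.01004).

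AAMT1 (GRMZM2G039993) was at 1.42, 4.94, 1.16 and 1.54 CPM in controls, 41.7, 111, 74.3 and 66.4 CPM after 2 h and 99.6, 77.05, 79.1 and 81.1 CPM after 24 h of *O. pratensis*. Leaves with *T. urticae* held 12.5, 33.99, 14.7 and 31.6 CPM after 2 h and 80.9, 129.7, 47.99 and 99.5 CPM after 24 h. The *O. pratensis* leaves overlapped between the times (log2 fold change 0.02 ± 0.34, adjusted p = 0.979), while the *T. urticae* leaves did not and rose by 1.68 ± 0.35 (adjusted p = 0.000271). After wounding it was at 333, 392, 382 and 535 CPM at 2 h and 2.55, 4.49, 3.5 and 2.98 CPM at 24 h. The later leaves overlapped the controls.

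Genes still called and genes no longer called 24 h after wounding had different median changes between the times with mites. Over the 26 genes still called 24 h after wounding, the median change from 2 to 24 h of *O. pratensis* was 0.07 and that of *T. urticae* was 1.58. Over the 30 genes not called, it was -1.36 and 0.11. Of the 26, 7 rose and 2 fell with *O. pratensis*, and of the 30, 1 rose and 20 fell. With *T. urticae* 18 of the 26 and 5 of the 30 rose. Of all genes tested, 6.76% were called higher and 1.21% lower with *O. pratensis*, and 11.5% higher with *T. urticae*. The split was not made for the other genes, so it is not shown to be particular to the 56. The log2 fold change 24 h after wounding and the change with *O. pratensis* ranked with a Spearman's rho of 0.67 over the 56 genes and 0.41 over all genes tested. For *T. urticae* the values were 0.67 and 0.56. The split rests on the edgeR call. DESeq2 called 33 of the 56 higher 24 h after wounding, and genes not called in edgeR reached log2 fold changes of 2.13. These comparisons share no leaf with each other, but control and mite leaves chose the genes. They are given without a test.

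At 2 h all 56 genes had higher fitted levels with *O. pratensis* than with *T. urticae*, although the number called rested on few leaves, as given below. The median log2 fold change was 1.22 (0.76 to 2.00), and for 49 of the 56 genes all 4 *O. pratensis* leaves lay above all 4 *T. urticae* leaves. In edgeR 28 were called higher, where 0.68% of all genes were called higher. These leaves also entered the choice of the genes, with the same threshold for both species, so the count is a description and nothing is read from its distance to that share. DESeq2 called 32. The 28 included all 5 TIFY genes, AAMT1, dxs2, bHLH108 and bHLH76. The largest differences were those of GRMZM2G075461 (2.00 ± 0.38, adjusted p = 0.00389), GRMZM2G011523 (1.96 ± 0.38, adjusted p = 0.00459) and TIFY9 (1.80 ± 0.29, adjusted p = 0.00105).

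GRMZM2G075461 was at 31.2, 52.4, 21.1 and 27 CPM with *O. pratensis* and 3.35, 13.4, 6.01 and 10.2 CPM with *T. urticae* at 2 h. The leaves of the 2 species were separate. This count of 28 rested on few leaves: it came to 4 and 9 when *T. urticae* replicate 3 or replicate 1 was left out and to 8 and 18 when *O. pratensis* replicate 2 or replicate 4 was, and it was 0 when only these 2 groups were fitted or when a 2-fold change was tested. The spread between leaves was widest in the *T. urticae* 2 h group, with a median coefficient of variation of 42.4% over the 56 genes against 25.2% with *O. pratensis* at 2 h and 17.7% and 22.7% after 24 h.

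At 24 h no such difference was called. The median log2 fold change of *O. pratensis* against *T. urticae* was -0.28 (-1.32 to 0.69), and 0 of the 56 genes passed in edgeR, where 0.9% of all genes were called. At an unadjusted p under 0.05 there were 16, of which 15 were lower with *O. pratensis*, and DESeq2 called 1. That gene was GRMZM2G103197 (-1.32 ± 0.31 in edgeR, adjusted p = 0.0128), whose leaf values are given above. The next nearest were bHLH76 (-0.90 ± 0.23, adjusted p = 0.0209) and bHLH108 (-0.98 ± 0.27, adjusted p = 0.0304).

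**Figure D5:**
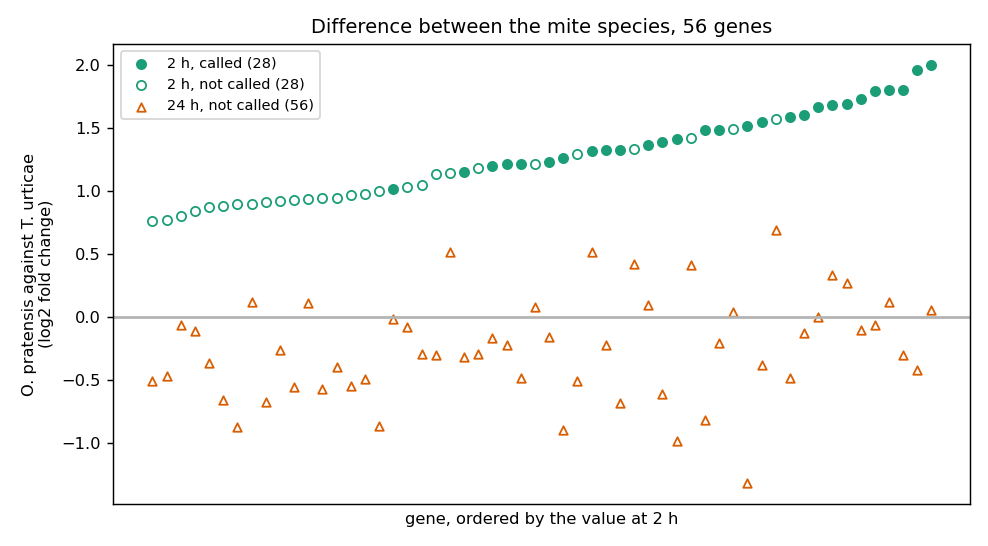
Log2 fold change of *O. pratensis* against *T. urticae* for the 56 genes, ordered by the value at 2 h (circles, filled where called), with the value at 24 h as triangles. At 2 h all values were positive (0.76 to 2.00) and 28 were called, and at 24 h they lay between -1.32 and 0.69 and none was called.

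The change of the species difference between the times was tested as an interaction, a comparison added after the data had been seen. All 56 fitted values were negative, with a median of -1.47 (-2.84 to -0.63). It was called for 21 genes in edgeR, where 0.703% of all genes were called in this direction, and for 31 in DESeq2. All 16 mite leaves entered the choice of the genes, so these counts too are descriptions. Among the 21 genes were GRMZM2G103197 (-2.84 ± 0.45, adjusted p = 0.000745) and bHLH108 (-2.39 ± 0.37, adjusted p = 0.000693). Also called were bHLH76 (-2.16 ± 0.31, adjusted p = 0.000459) and TIFY9 (-2.11 ± 0.41, adjusted p = 0.00513). TIFY20 was called at -1.83 ± 0.32 (adjusted p = 0.00186). The edgeR count was 0 against a 2-fold change, and between 8 and 35 when single leaves were left out. It was 8 without *T. urticae* 2 h replicate 3 or 24 h replicate 4. It was 9 without *T. urticae* 24 h replicate 2 or *O. pratensis* 24 h replicate 1 or 2. It was 10 without *O. pratensis* 2 h replicate 2 or 24 h replicate 4, and 35 without *T. urticae* 2 h replicate 2.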

How the data were processed

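Messenger RNA was measured by strand-specific poly(A) sequencing in 28 leaves. Per the labels and the study's methods, the authors aligned the reads with STAR 2.5.2b to maize AGPv3, counted uniquely aligned reads per gene with HTSeq 0.6.0, and deposited these counts without normalization, so genes with near-identical copies can be undercounted. Groups were taken from the sample labels. The 56 genes and the family lists were chosen with earlier results of these data known.

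Tests were run with edgeR 4.0.16 (R 4.3.3): filterByExpr left 22339 genes, all 56 among them, libraries were scaled by TMM, and all 28 samples entered one quasi-likelihood fit. Calls needed a Benjamini-Hochberg adjusted p no larger than 0.01 together with a log2 fold change of 1 or more in size. Library totals of 14721310 to 32891100 reads set the precision. Leaf values are CPM from library totals. The scripts were tested on simulated counts.

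Genes were named by a rule: the 10 with most reads in mite leaves, the 5 with the largest mean D over mite groups, the 5 largest and 5 smallest D at each wounding time, up to 3 called in each direction in the comparisons between treated groups, up to 4 in each family list and 3 on either side of the threshold. AAMT1 and TIFY20 were added after their values had been seen. Families were matched only by symbols and synonyms of the assembly Zm-B73-REFERENCE-NAM-5.0, so unnamed relatives are missing. WRKY, MYB, AP2/ERF and jasmonate synthesis genes, also looked for, had 0 of the 56. The same held for proteinase inhibitor, chitinase, cytochrome P450, calcium sensor and transporter genes. These zeros refer to the 56 genes alone. Of the 9 identifiers that the rule left out, 8 passed its thresholds and were not counted, so the zeros do not show that a family lacks such genes. The remaining lists matched no gene that was tested. Alternatives were DESeq2 1.42.0, RLE size factors, library totals alone, no expression filter, a replicate block, a fit of only the groups compared, glmTreat and leaving out single leaves, and for the gene choice other offsets, TMM-scaled CPM and means of logs.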

Additional observations from a re-analysis of the deposited data

Results flagged for a closer look

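Leaf values were checked for single leaves far from the other 3 of their group in 133 groups of 4 leaves (18 genes and the summed CPM in 7 groups). In 8 of them 1 leaf stood apart by Dixon's 95% limit, and chance alone flags about 5% of groups. In 3 genes the high leaf was wounding 2 h replicate 2: bHLH116 (GRMZM2G042895) at 311 CPM against 177 to 183, TIFY4 (GRMZM2G445634) at 236 against 157 to 166, and TIFY20 (GRMZM2G173596) at 135 against 84.0 to 90.1. TIFY20 also stood high in *O. pratensis* 2 h replicate 2, at 33.1 CPM against 19.02 to 21.3. TIFY9 (GRMZM2G145412) was at 0.485 CPM in control replicate 1 against 0.112 to 0.134, and at 1.28 CPM in wounding 24 h replicate 3 against 0.469 to 0.583. AAMT1 (GRMZM2G039993) was at 4.94 CPM in control replicate 2 against 1.16 to 1.54. A single low leaf was that of GRMZM5G838098 (TIFY2 and TIFY3) in *O. pratensis* 24 h replicate 2, at 29.6 CPM against 42.6 to 44.0.

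By the interaction test in edgeR, the change from 2 to 24 h was called different between the mite species for 21 of the 56 genes. Each of the 21 had a lower fitted change with *O. pratensis* than with *T. urticae*, where 0.703% of all genes tested were called in this direction. Leaving out single leaves gave counts of 8 to 35. Mite leaves chose the genes, so these counts are descriptions.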

How the results depend on the processing

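Calls in the wounding 2 h comparisons (56 of 56) held under all alternatives run. Against a 2-fold change the counts were 11 for wounding 24 h against control, 0 for *O. pratensis* against *T. urticae* at 2 h, 14 for *O. pratensis* 24 h against 2 h, 11 for *T. urticae* 24 h against 2 h and 0 for the species by time interaction. With only the groups compared in the fit they were 0 for the species at 2 h, 1 for the species at 24 h and 12 for the interaction. The species difference at 24 h also had 1 call with library totals alone, without the expression filter and with DESeq2. The cause of these changes was not tested. Leaving out single leaves gave 21 to 27 calls for wounding 24 h against control, 4 to 37 for the species at 2 h, 0 at 24 h, 28 to 31 and 23 to 24 for the time change with *O. pratensis* and *T. urticae*, 8 to 35 for the interaction and 56 for wounding 2 h against control and wounding 24 h against 2 h. The rule chose 28 genes with an offset of 2, 79 with 0.5, 53 with TMM-scaled CPM, 54 with means of logs and 46 to 64 without single leaves. The median D after 2 h of wounding was 6.13 and 5.14 with offsets of 0.5 and 2 and 5.65 to 5.88 without single leaves, and after 24 h it was 0.54 with an offset of 2 and 0.68 to 0.86 without single leaves. Of 155 called differences of named genes, 54 lost the call under at least 1 alternative and 0 reversed. Replicate numbers were not shown to pair leaves: same-numbered leaves of different groups had a mean correlation of deviations of 0.104 (-0.247 to 0.332), others -0.0347, and 19 of 28 libraries correlated best with their own number. With the replicate number as a block the counts were 56, 26 and 56 for the wounding comparisons in the order above (2 h and 24 h against control, then 24 h against 2 h), 32 and 1 for the species at 2 and 24 h, 31 and 23 for the time changes and 29 for the interaction.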
